A study of Homo sapiens with 24 samples.

Results

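The genes described here encode the proteins of oxidative phosphorylation, followed while H1 cells were induced towards neural stem cells. A gene was a member when its annotated symbol began with NDUFA, NDUFB, NDUFC, NDUFS, NDUFV, UQCR, COX4 to COX8, ATP5F, ATP5M or ATP5P, or was SDHA, SDHB, SDHC or SDHD, and the measurement with the highest mean over all arrays stood for it. The symbols took in 117 probe entries of 85 genes, of 17760 named genes in all. These were 33 subunit genes of complex I, 3 of complex II, 8 of complex III, 16 of complex IV and 16 of complex V. The same symbols also caught 7 complex I assembly factors whose names begin with NDUFAF and 2 pseudogenes, UQCRBP1 and ATP5F1EP2, which are not subunits and are counted apart. COXFA4, formerly NDUFA4, fell outside the symbols.

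H1 is a long-established line of human embryonic stem cells. Dorsomorphin (compound C) blocks BMP signalling at its type I receptors and also inhibits the kinase AMPK. Confluent H1 cells on Matrigel were moved from mTeSR to DMEM/F12 with KSR, glutamine, nonessential amino acids and β-mercaptoethanol, and total RNA was taken 0, 12, 24, 36, 48 and 72 h after dorsomorphin induction began. Each time had 4 biotin-labelled Illumina HumanHT-12 v4 bead arrays, 24 in all, and every value below is a log2 signal or a difference of log2 signals. No culture kept in the first medium or without dorsomorphin was sampled at the later times, so time, medium and compound cannot be told apart, and the labels do not say that the 4 arrays of a time came from separate cultures, so p-values cover the spread between arrays alone, and that spread may be technical.

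Oxidative phosphorylation takes place in the inner mitochondrial membrane. Complexes I and II pass electrons from NADH and succinate to ubiquinone, complex III passes them on to cytochrome c, complex IV reduces oxygen, and the proton gradient that complexes I, III and IV build up drives ATP synthase, complex V. Most subunits are encoded in the nucleus, a small core is encoded by mitochondrial DNA, and pluripotent stem cells are known for a strong reliance on glycolysis beside respiration. None of the 13 subunit genes of mitochondrial DNA was analysed here, nor were SDHB, NDUFA2, NDUFA6, NDUFB9, UQCRFS1, COX7A2L and ATP5F1E.

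The arrays were alike in overall signal, with 9251 to 9474 genes above background on an array and a median Pearson correlation of 0.987 between arrays of the same time over 36 pairs. Background was taken as 7.10, the 99th percentile of 387 olfactory receptor measurements. At 72 h, 8 of 10 tested neural plate markers rose and of 9 tested pluripotency markers 5 fell, 2 rose (SOX2 and LIN28A) and 2 were not called. Among all genes tested, 18.5% were higher and 17.4% lower at 72 h against 0 h, which applies to all the marker counts here. The mean log2 signal of the 12 neural plate markers in the table was 9.96 to 10.21 at 72 h and 7.71 to 8.38 at 0 h, and that of the 9 pluripotency markers was 10.61 to 11.02 at 72 h and 11.64 to 11.98 at 0 h. Of 5 tested neuron markers MAP2 rose, and the 1 tested trophoblast marker was not called. Of 8 mesoderm and endoderm markers only CXCR4 was above background on enough arrays to be tested, and it was higher at 72 h. TBXT and SOX17 were above background on 0 of 24 arrays. The mean signal of those 8 was 6.54 to 6.63 at 72 h and 6.34 to 6.44 at 0 h. Of 7 fibroblast markers 4 were tested, of which THY1 fell, and COL3A1, DCN and LUM were above background on 0 of 24 arrays. Their mean signal was 8.16 to 8.34 at 72 h and 8.50 to 8.73 at 0 h. A marker that passes the filter only through the times where it is high had to differ. The marker counts were not screened for such genes, CXCR4 and the neural plate markers included, so they are a description and not a test. In RNA from a whole culture, fewer cells of a type and less RNA per cell cannot be told apart, and the part that the change in cell state had in the differences below was not tested.

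The 6 arrays 0 h replicate 2, 12 h replicate 4, 24 h replicate 2, 36 h replicate 4, 48 h replicate 4 and 72 h replicate 2 deviated alike from the other arrays of their times, along a component that held 27% of the residual variance. The median member lay -0.03 to 0.06 from the mean of its own time on those 6 arrays and -0.05 to 0.06 on the other 18. Moves up and down cancel in a median, so these values do not show how far single members moved. Calls that were lost without those 6 arrays are named beside the genes.

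Of the 85 members, 76 exceeded background on at least 4 arrays and entered the test, 73 of them on all 24. Mean signals of the tested members ran from 6.96 to 14.67 with a median of 11.82, the lowest being NDUFC2 and the highest COX7C, a small subunit of complex IV. The other 9 were too dim to enter the test, and whether little RNA or a poorly reading probe lay behind this was not tested. COX4I2, COX6A2, COX6B2, COX7B2, COX8C, NDUFA5, NDUFS6 and NDUFAF5 were above background on 0 of 24 arrays, and NDUFB4 was on 1. The first 5 of these are the isoforms of complex IV subunits known from lung, heart and skeletal muscle or testis, while the widely expressed forms COX4I1, COX6A1, COX6B1, COX7B and COX8A were above background on all arrays. Tested members that were above background on fewer than 24 arrays were NDUFC2 on 5, COX7A1 on 11 and UQCRB on 22.

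The subunit genes moved little over the first 48 h and then more of them fell than rose by 72 h. A call below means an adjusted p under 0.05 in limma, with Benjamini-Hochberg adjustment over all 10215 genes tested in that comparison. At 12 h against 0 h, 1 of 76 members was higher and 0 lower, where 2.76% of all genes tested were higher, 3.32% lower and 6.08% called either way. At 24 h the counts were 3 higher and 0 lower, against 3.97% higher, 3.24% lower and 7.21% either way among all genes tested. At 36 h they were 4 higher and 0 lower, against 7.96%, 9.07% and 17.0%. At 48 h they were 3 higher and 2 lower, against 10.7%, 10.5% and 21.2%. At 72 h, 4 members were higher and 13 lower, which is 22.4% of the members called, where 18.5% of all genes tested were higher, 17.4% lower and 35.9% called either way. The share of members called was thus below the background share at each time, and the share of members that fell at 72 h was close to it, so that count is not particular to them. COX7A1 passed the filter only through the later times, at which it was higher, and it is 1 of the rises at 36, 48 and 72 h. Without it the counts over the other 75 members were 3, 2 and 3 higher at those times, with the same 0, 2 and 13 lower.

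The sizes of the changes were small. The median member change was 0.06, 0.07, 0.06, 0.03 and -0.04 at 12, 24, 36, 48 and 72 h against 0 h, beside a median of 0.01 for all genes tested at 72 h. Without regard to sign the median member change at 72 h was 0.15 and that of all genes tested was 0.21. Most members lay above their 0 h mean at first, namely 56, 61, 52 and 45 of 76 at 12, 24, 36 and 48 h, and 29 of 76 did so at 72 h. Of the 10215 genes tested, 5351, 5102, 5390, 5216 and 5200 did so at the 5 times. These comparisons share the 0 h arrays, so the counts are not independent of each other. None of the members changed by 2-fold at any time, whereas 422 of the genes tested changed by at least that much at 72 h, called or not. The largest member folds at the 5 times were 1.37, 1.71, 1.47, 1.45 and 1.54. The median spread between arrays of one time was an SD of 0.14 for members and 0.16 for all genes tested, so the members were measured about as tightly as other genes.

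**Figure D1:**
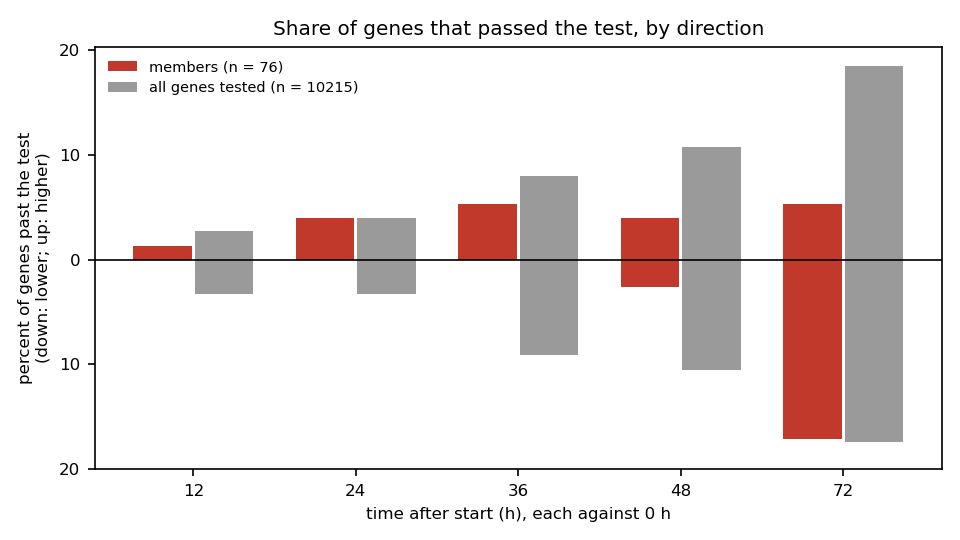
Percent of genes past the test at each time against 0 h, upward for higher and downward for lower, with the 76 tested members in red and all 10215 genes tested in grey. The members' bars stay shorter than those of all genes from 36 h on, except that 13 of 76 members are lower at 72 h, close to the 17.4% of all genes.

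Over the whole course, the moderated F test of any difference from 0 h was passed by 20 of 76 members, 26.3%, where 48.9% of all genes tested passed; COX7A1 was 1 of the 20, and 19 of the other 75 passed. By complex these were 9 of 30 in complex I, 2 of 3 in complex II, 1 of 8 in complex III, 3 of 11 in complex IV and 3 of 16 in complex V, with 2 of 6 assembly factors. By 72 h against 0 h the median change was 0.01 in complex I, -0.32 in complex II, -0.10 in complex III, 0.10 in complex IV, -0.09 in complex V and -0.25 in the assembly factors. Among the 68 protein-coding subunits alone, 3 rose, COX7A1 included, 11 fell and 54 were not called at 72 h. This is 20.6% called, where 35.9% of all genes tested were called.

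**Figure D2:**
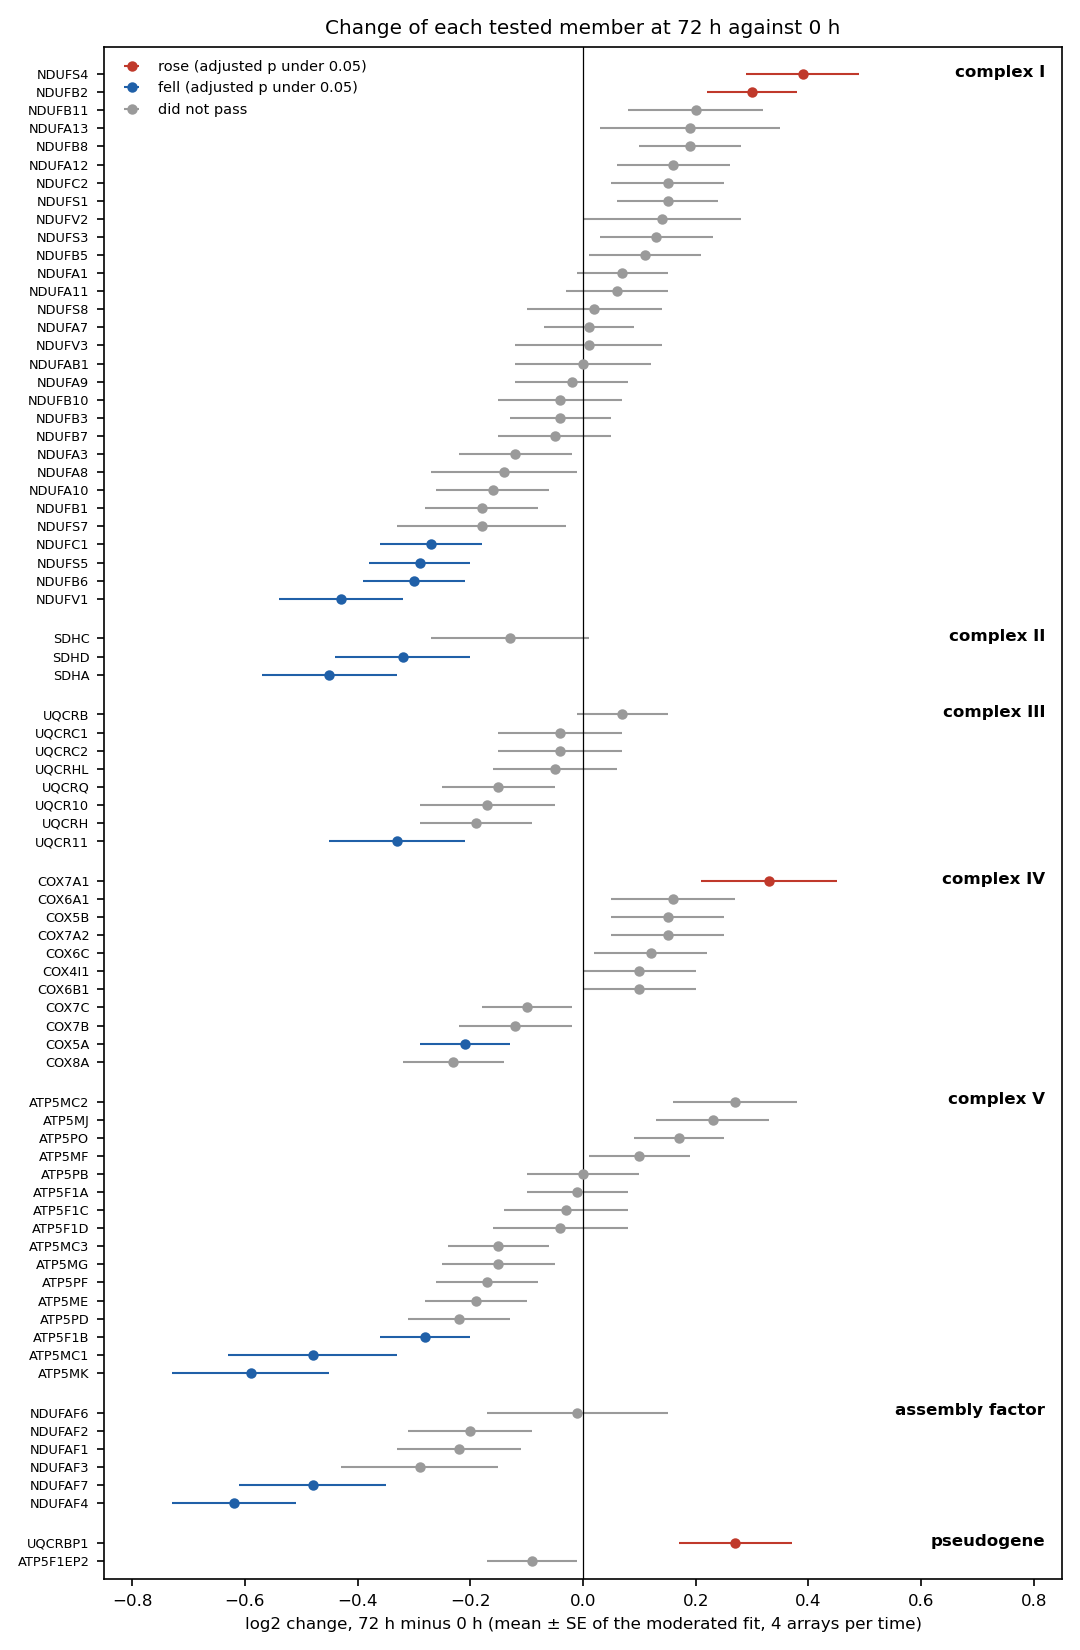
Log2 change at 72 h against 0 h of each tested member, grouped by complex and ordered by size, with bars of ± SE of the moderated fit from 4 arrays per time. Red points rose, blue points fell and grey points did not pass the test, and all points lie between -0.62 for NDUFAF4 and 0.39 for NDUFS4.

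Promoters of nuclear respiratory chain genes are known for binding sites of NRF1, of GABP (also called NRF2) and of YY1, so the windows of members whose levels moved are shown. They run from 100 bases before to 30 bases from the annotated start on, 5′ to 3′ on the gene's strand, from the RefSeq promoter table of GRCh38.p14. Capitals mark exact matches to the letters GCGCATGC (NRF1 core), CCGGAAG (GABP core) or AAGATGGC (YY1 core) or their other strands GCATGCGC, CTTCCGG and GCCATCTT. No capital stands in a window without such a match. NDUFAF4, ATP5MK, SDHA and NDUFV1 fell by 72 h, NDUFS4 rose, and NDUFA9 was higher at the middle times.
NDUFAF4, chr6:96897862-96897991, minus strand: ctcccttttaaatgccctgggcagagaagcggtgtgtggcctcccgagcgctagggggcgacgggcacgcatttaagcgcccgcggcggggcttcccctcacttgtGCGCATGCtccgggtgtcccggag
ATP5MK, chr10:103396446-103396575, minus strand: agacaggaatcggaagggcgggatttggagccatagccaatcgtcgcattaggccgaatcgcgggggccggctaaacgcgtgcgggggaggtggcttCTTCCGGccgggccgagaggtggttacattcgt
SDHA, chr5:218220-218349, plus strand: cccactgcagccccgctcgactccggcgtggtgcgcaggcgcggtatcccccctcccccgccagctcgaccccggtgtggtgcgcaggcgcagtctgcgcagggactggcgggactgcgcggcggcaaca
NDUFV1, chr11:67606836-67606965, plus strand: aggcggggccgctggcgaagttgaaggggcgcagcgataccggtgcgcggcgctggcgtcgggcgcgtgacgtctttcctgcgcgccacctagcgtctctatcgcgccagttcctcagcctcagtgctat
NDUFS4, chr5:53560539-53560668, plus strand: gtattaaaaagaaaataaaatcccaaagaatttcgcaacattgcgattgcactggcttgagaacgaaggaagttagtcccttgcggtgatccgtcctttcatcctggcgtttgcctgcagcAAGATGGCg
NDUFA9, chr12:4649014-4649143, plus strand: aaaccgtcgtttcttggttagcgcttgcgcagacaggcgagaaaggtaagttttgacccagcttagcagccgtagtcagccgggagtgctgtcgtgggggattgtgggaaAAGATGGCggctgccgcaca

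Of the 83 members that are not pseudogenes, 69 were found in that table, and their windows of 300 bases, from 250 before to 50 from the start on, were searched on both strands. The NRF1 core lay in 18.8% of the members' windows, in 5.81% of those of the 8406 genes tested that were in the table, and in 3.27% of all its 27305 promoters. The GABP core lay in 29.0%, 19.3% and 10.7% of these, the YY1 core in 13.0%, 5.66% and 3.03%, and any of the 3 in 49.3%, 27.6% and 15.6%. Overlapping matches of different motifs were each counted for their own motif. Matches were not particular to the members that moved: 4 of the 11 members that fell at 72 h and were in the table held any of the 3 motifs, and 26 of the 48 with no call did. A match of letters is a description and not a bound site. Of the genes for these factors, GABPA rose by 0.34 ± 0.09 (SE, adjusted p = 0.0032) at 72 h, GABPB1 (-0.03) and YY1 (-0.17, adjusted p = 0.143) were not called, and NRF1 was above background on 0 of 24 arrays.

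Complex I, the NADH dehydrogenase, held both falls and rises by 72 h, with 2 of 30 tested subunits higher, 4 lower and 24 not called. Beside these stand 18.5% higher and 17.4% lower among all genes tested. NDUFV1, the subunit that binds FMN and oxidises NADH, had 10.63, 10.29, 10.80 and 10.66 in the 4 arrays at 72 h, against 11.08, 10.84, 10.95 and 11.24 at 0 h. All 4 arrays at 72 h lay below all 4 at 0 h, although the gap between the highest at 72 h and the lowest at 0 h was narrow. The change was -0.43 ± 0.11 (SE), 1.35-fold lower, with an adjusted p of 0.0028. Its fall came late: the mean was still 11.02 ± 0.17 at 48 h (SD, n = 4), and the step at 72 h against 48 h was -0.42 ± 0.11 (adjusted p = 0.0164). The call of that last step was lost without 48 h replicate 2 (-0.37, adjusted p = 0.0833), 48 h replicate 3 (-0.39, adjusted p = 0.0684) or 72 h replicate 2 (-0.32, adjusted p = 0.107).

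The other falls of complex I were in accessory subunits. NDUFB6, of the membrane arm, had 10.99, 10.90, 11.05 and 11.02 at 72 h, against 11.38, 11.23, 11.32 and 11.24 at 0 h, with no overlap. NDUFS5 had 13.10, 13.08, 13.16 and 13.02 at 72 h, against 13.45, 13.44, 13.31 and 13.30 at 0 h, again with no overlap. NDUFB6 was 1.23-fold lower (adjusted p = 0.0105) and NDUFS5 1.22-fold lower (adjusted p = 0.0177), and the NDUFS5 call was lost without the 6 arrays that deviated alike (-0.26, adjusted p = 0.0678). NDUFC1 had 9.82, 9.86, 9.77 and 9.80 at 72 h, against 10.34, 10.07, 9.85 and 10.08 at 0 h. One array at 0 h lay within the range at 72 h, and the change was -0.27 ± 0.09 (SE, adjusted p = 0.0225), a call lost without 0 h replicate 1 (-0.19, adjusted p = 0.117) or 72 h replicate 3 (-0.26, adjusted p = 0.0529).

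NDUFS4 and NDUFB2 were the complex I genes that rose by 72 h. NDUFS4, an accessory subunit at the NADH end that is needed for a stable complex and is known from Leigh syndrome, had 12.26, 12.30, 12.34 and 12.09 at 72 h, against 12.03, 11.97, 11.49 and 11.93 at 0 h. The 72 h arrays all lay above the 0 h arrays, 0 h replicate 3 being the lowest, and the change was 0.39 ± 0.10 (SE), 1.31-fold, adjusted p = 0.00279. Without 0 h replicate 3 it was 0.27 and was still called. NDUFB2, of the membrane arm, had 12.81, 12.78, 12.81 and 12.70 at 72 h, against 12.45, 12.51, 12.50 and 12.45 at 0 h. Those groups did not overlap and each was tight, with a change of 0.30 ± 0.08 (SE, adjusted p = 0.0067).

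NDUFA9, an accessory subunit near the junction of the arms of complex I, was higher in the middle of the course. Its 4 arrays at 0 h had 10.04, 9.85, 10.08 and 9.87. The 36 h arrays had 10.60, 10.50, 10.42 and 10.34, those of 48 h 10.53, 10.49, 10.50 and 10.16, and those of 72 h 9.88, 9.97, 9.93 and 9.97. All arrays of 36 and 48 h lay above all arrays of 0 and 72 h. The change against 0 h was 0.51 ± 0.10 at 36 h (SE, adjusted p = 0.000622), 0.46 ± 0.10 at 48 h (adjusted p = 0.00121) and -0.02 ± 0.10 at 72 h (adjusted p = 0.879). The step at 72 h against 48 h was -0.48 ± 0.10 (adjusted p = 0.00252). The call of its difference at 24 h (0.32, adjusted p = 0.0446) was lost in 13 of 24 fits that left out 1 array, with adjusted p up to 0.135 without 24 h replicate 2, without the 6 arrays that deviated alike (0.21, adjusted p = 0.223), with array weights (adjusted p = 0.0588) and with no filter on dim genes (adjusted p = 0.0503).

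Other complex I calls were of single times. NDUFA1, a small membrane subunit, had 12.83, 12.72, 12.76 and 12.78 at 24 h, against 12.61, 12.40, 12.47 and 12.45 at 0 h, a change of 0.29 ± 0.08 (SE, adjusted p = 0.0177) with no overlap. That call was lost without 0 h replicate 2 (0.26, adjusted p = 0.0544), 24 h replicate 1 (0.27, adjusted p = 0.0576) or the 6 arrays that deviated alike (0.28, adjusted p = 0.0716). NDUFV2, the iron-sulfur subunit beside NDUFV1, had 12.45, 12.08, 12.74 and 12.57 at 48 h, against 11.84, 12.02, 12.06 and 12.16 at 0 h. The groups overlapped, the change was 0.44 ± 0.14 (SE, adjusted p = 0.0263), and the call was lost in 4 of 24 fits that left out 1 array, namely 0 h replicate 1 (adjusted p = 0.0839) and 48 h replicates 1 (0.05), 3 (0.105) and 4 (0.0736), and without the 6 arrays (adjusted p = 0.0773). NDUFC1 was lower at 36 h than at 24 h by -0.34 ± 0.09 (adjusted p = 0.0165), a call lost without 24 h replicate 4 (adjusted p = 0.0619), 36 h replicate 4 (adjusted p = 0.0651) or the 6 arrays (adjusted p = 0.0795).

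NDUFV3, a peripheral subunit with tissue-dependent isoforms, was the only member called at 12 h. Its arrays had 7.92, 8.13, 7.70 and 8.27 at 12 h, against 7.23, 7.69, 7.90 and 7.40 at 0 h, close to background and overlapping. The change was 0.45 ± 0.13 at 12 h against 0 h (SE, adjusted p = 0.0389), -0.56 at 24 h against 12 h (adjusted p = 0.014) and 0.40 at 36 h against 24 h (adjusted p = 0.0388). The 12 h call was lost without 0 h replicate 1 (adjusted p = 0.182) or 4 (0.136), without 12 h replicate 1 (0.0655), 2 (0.104) or 4 (0.154), and without the 6 arrays that deviated alike (0.132). The 24 h step was lost in 3 of 24 fits that left out 1 array, with adjusted p up to 0.0589 without 24 h replicate 4, and the 36 h step in 7 of 24, with adjusted p up to 0.151 without 24 h replicate 4. Averaged with its other, dimmer measurement, NDUFV3 was not called at 12 h (0.13, adjusted p = 0.374) or at 36 h against 24 h (0.15, adjusted p = 0.19), and the 36 h step was not called with no filter on dim genes (adjusted p = 0.0516). NDUFAB1, the mitochondrial acyl carrier protein that is also a complex I subunit, averaged 12.26 ± 0.22 at 72 h and 12.26 ± 0.19 at 0 h (SD, n = 4 each) and was not called.

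Among the complex I assembly factors with NDUFAF names, NDUFAF4 had the largest fall of any member at 72 h against 0 h. This ranking holds for the measurements that stood for each gene. NDUFAF4, which acts in the assembly of the complex and is no part of the finished enzyme, had 9.35, 9.07, 9.38 and 9.28 at 72 h, against 9.86, 9.77, 10.12 and 9.82 at 0 h. Every array at 72 h lay below every array at 0 h, and the change was -0.62 ± 0.11 (SE), 1.54-fold lower, adjusted p = 0.000129. It was already lower at 48 h, with 9.52, 9.53, 9.39 and 9.12 (change -0.50 ± 0.11 against 0 h, adjusted p = 0.00217). The step at 24 h against 12 h (-0.42, adjusted p = 0.0291) was lost in 5 of 24 fits that left out 1 array, namely 12 h replicates 2 (adjusted p = 0.101) and 4 (0.0864) and 24 h replicates 1 (0.0639), 2 (0.0547) and 4 (0.066), and without the 6 arrays (0.0825).

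NDUFAF7, a methyltransferase that acts in the assembly of complex I, went both ways. The 0 h arrays had 10.61, 10.76, 10.63 and 10.65. The 24 h arrays had 11.54, 11.33, 11.43 and 11.43, those of 36 h 11.11, 11.42, 11.12 and 11.21, and those of 72 h 10.11, 9.87, 10.43 and 10.32. The 24 h and 36 h arrays all lay above 0 h and the 72 h arrays all lay below it. Against 0 h the change was 0.77 ± 0.13 at 24 h (SE), 1.71-fold and the largest of any member, with an adjusted p of 0.000492, then 0.55 ± 0.13 at 36 h (adjusted p = 0.00397) and -0.48 ± 0.13 at 72 h (adjusted p = 0.00494). The last day brought -0.76 against 48 h (adjusted p = 0.000477). Its second measurement changed by -0.22 at 72 h, and the mean of both was not called at 36 h (0.19, adjusted p = 0.288). Over the 36 other settings, the mean of both measurements among them, the change of NDUFAF7 at 24 h against 0 h ran from 0.51 to 0.84. The step at 24 h against 12 h (0.49, adjusted p = 0.0269) was lost without 12 h replicate 2 (adjusted p = 0.0885) or 24 h replicates 1 (0.0742), 3 (0.0522) or 4 (0.0667). Of the other tested factors NDUFAF1, NDUFAF2, NDUFAF3 and NDUFAF6 none was called at 72 h.

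**Figure D3:**
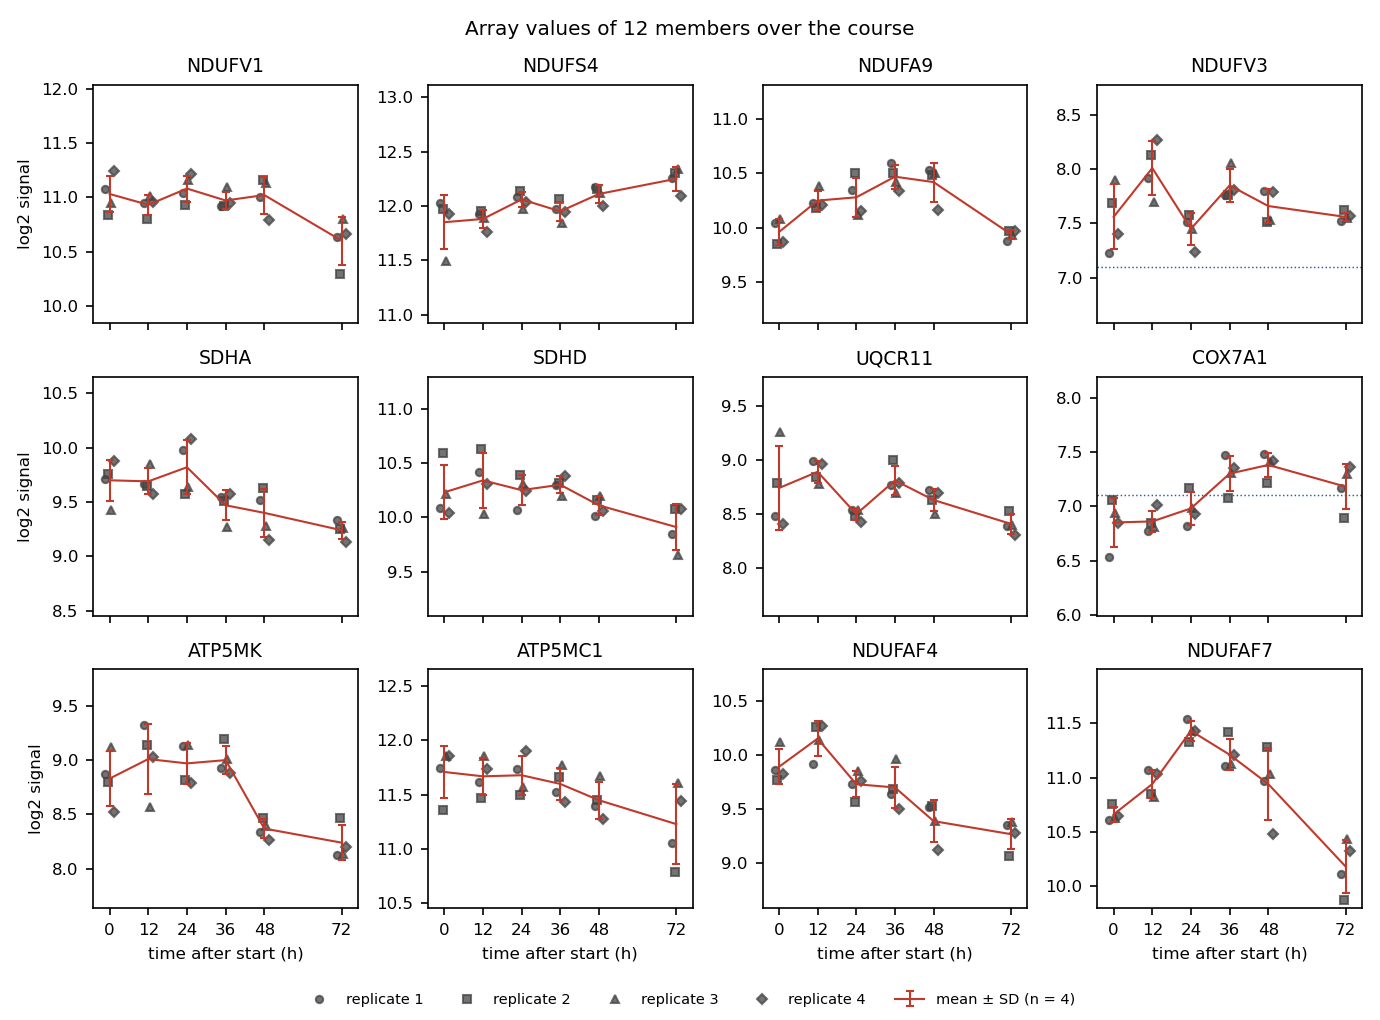
Log2 signal on each array over time (h) for 12 members, with a marker shape per replicate number and the mean ± SD of 4 arrays in red. The dotted line in the NDUFV3 and COX7A1 panels is the background of 7.10; NDUFA9 and NDUFAF7 are high in the middle of the course, while ATP5MK, NDUFAF4 and SDHA are lowest at 72 h.

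Complex II, succinate dehydrogenase, is the only complex of the chain encoded wholly in the nucleus. By 72 h 2 of its 3 measured genes fell, where 17.4% of all genes tested were lower. SDHA, the flavoprotein that oxidises succinate, had 9.33, 9.25, 9.26 and 9.13 at 72 h, against 9.71, 9.76, 9.43 and 9.88 at 0 h. The groups did not overlap, and the change was -0.45 ± 0.12 (SE), 1.37-fold lower, adjusted p = 0.005. Its mean at 36 h was 9.47 ± 0.14 and at 48 h 9.40 ± 0.22 (SD, n = 4), neither called against 0 h. SDHA has close pseudogene copies in the genome, and whether its probe reads them was not tested.

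SDHD, one of the membrane anchors, had 9.85, 10.08, 9.65 and 10.08 at 72 h, against 10.09, 10.59, 10.21 and 10.04 at 0 h. The groups overlapped, and the change of -0.32 ± 0.12 (SE) had an adjusted p of 0.048, at the edge of the threshold. It was lost in 16 of 24 fits that left out 1 array, with changes from -0.38 to -0.20 and an adjusted p up to 0.215 without 0 h replicate 2, without the 6 arrays that deviated alike (-0.25, adjusted p = 0.158), and with no filter on dim genes (adjusted p = 0.0636). SDHC, the other anchor, had 10.37, 10.12, 10.72 and 10.22 at 72 h, against 10.47, 10.27, 10.69 and 10.53 at 0 h, and was not called (-0.13, adjusted p = 0.475). Its second measurement changed by -0.26.

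In complex III, cytochrome c reductase, 1 of 8 tested genes fell by 72 h and 7 were not called, beside 17.4% lower among all genes tested. UQCR11, a small accessory subunit, had 8.39, 8.53, 8.40 and 8.31 at 72 h, against 8.48, 8.79, 9.26 and 8.41 at 0 h. The groups overlapped and 0 h replicate 3 stood highest. The change was -0.33 ± 0.12 (SE, adjusted p = 0.0413), and without 0 h replicate 3 it was -0.15 (adjusted p = 0.251). The call was also lost without 0 h replicate 2 (adjusted p = 0.0831), 72 h replicates 1 (0.0773), 3 (0.0717) or 4 (0.0978), or the 6 arrays (0.0969), with array weights (-0.26, 0.0824) and with no filter on dim genes (0.0543). The core proteins UQCRC1 and UQCRC2 each changed by -0.04. UQCRH, the hinge protein, changed by -0.19 (adjusted p = 0.143) and its retrogene copy UQCRHL by -0.05 (adjusted p = 0.77), and sequence shared between these copies may reach both probes.

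In complex IV, cytochrome c oxidase, COX5A fell by 72 h and 9 other tested subunits were not called, with COX7A1, described below as a bound, left out. Of all genes tested, 17.4% were lower and 18.5% higher. COX5A had 13.06, 13.13, 13.17 and 13.25 at 72 h, against 13.18, 13.48, 13.41 and 13.36 at 0 h. The groups overlapped, and the change of -0.21 ± 0.08 (SE, adjusted p = 0.0372) was lost in 6 of 24 fits that left out 1 array: 0 h replicates 2 (adjusted p = 0.12), 3 (0.0794) and 4 (0.066), and 72 h replicates 1 (0.114), 2 (0.0755) and 3 (0.0562). Without the 6 arrays that deviated alike it was -0.16 (adjusted p = 0.222), and with array weights -0.20 (adjusted p = 0.0532).

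COX7A1, the form of subunit 7a known from heart and skeletal muscle, stayed close to background, and it passed the filter through the later times. It had 6.53, 7.06, 6.94 and 6.85 at 0 h, all under the background of 7.10. The 36 h arrays had 7.47, 7.08, 7.31 and 7.35, those of 48 h 7.48, 7.21, 7.41 and 7.42, and those of 72 h 7.17, 6.89, 7.30 and 7.36. Measured against the background in place of the 0 h values, it was at least 1.15-fold higher at 36 h (3 of 4 arrays above background), at least 1.21-fold at 48 h (4 of 4) and at least 1.06-fold at 72 h (3 of 4). A gene that passes the filter through the times where it is high had to differ, so these values are a description and its calls are not read as a test. COX7A2, the widely expressed form, had 13.89, 13.87, 13.78 and 13.62 at 36 h, against 13.61, 13.40, 13.48 and 13.41 at 0 h, a change of 0.31 ± 0.10 (SE, adjusted p = 0.0318). That call was lost without 0 h replicates 2 (adjusted p = 0.0744) or 4 (0.0893) or 36 h replicates 1 (0.099), 2 (0.0818) or 3 (0.0539). At 72 h it was not called (0.15, adjusted p = 0.25).

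The other paired isoforms of complex IV were not called at 72 h in their widely expressed forms. COX4I1 averaged 13.44 ± 0.10 at 72 h and 13.34 ± 0.06 at 0 h (SD, n = 4 each). COX6A1 changed by 0.16 (adjusted p = 0.247), COX6B1 by 0.10 (adjusted p = 0.434), COX7B by -0.12 (adjusted p = 0.369) and COX8A by -0.23 (adjusted p = 0.0591). COXFA4, named NDUFA4 before it was assigned to complex IV and outside the symbols used here, changed by -0.03 ± 0.10 (SE, adjusted p = 0.865).

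In complex V, ATP synthase, 3 of 16 subunits fell by 72 h, 0 rose and 13 were not called, beside 17.4% lower and 18.5% higher among all genes tested. ATP5MK, a small membrane subunit of the synthase dimer, had 8.13, 8.47, 8.14 and 8.20 at 72 h, against 8.87, 8.80, 9.12 and 8.52 at 0 h, with no overlap. The change was -0.59 ± 0.14 (SE), 1.51-fold lower, adjusted p = 0.00137. The second measurement of ATP5MC1 changed by -0.87, but among the measurements that stood for each gene ATP5MK had the largest fall of a subunit at 72 h. The drop came between 36 and 48 h: the arrays had 8.34, 8.47, 8.39 and 8.26 at 48 h, against 8.93, 9.19, 9.01 and 8.88 at 36 h, all lower, a change of -0.64 ± 0.14 (adjusted p = 0.00978). Against 0 h the 48 h difference was -0.46 ± 0.14 (adjusted p = 0.0162), a call lost without 0 h replicate 3 (-0.36, adjusted p = 0.0736) or the 6 arrays (-0.44, adjusted p = 0.0669).

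ATP5F1B, the catalytic beta subunit, had 14.25, 14.37, 14.41 and 14.39 at 72 h, against 14.54, 14.63, 14.69 and 14.68 at 0 h, near the top of the signal range. The groups did not overlap, and the change was -0.28 ± 0.08 (SE), 1.21-fold lower, adjusted p = 0.0107. ATP5F1A, the alpha subunit beside it in the catalytic head, changed by -0.01 and was not called.

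The genes ATP5MC1, ATP5MC2 and ATP5MC3 encode the same mature subunit c of the rotor behind different import sequences, and they did not share a call. ATP5MC1 had 11.06, 10.79, 11.61 and 11.44 at 72 h, against 11.75, 11.36, 11.86 and 11.86 at 0 h. The groups overlapped and 72 h replicate 2 was lowest, and the change was -0.48 ± 0.15 (SE, adjusted p = 0.0118), or -0.34 (adjusted p = 0.0726) without that array. Its second measurement changed by -0.87. ATP5MC2 had 13.61, 13.69, 13.50 and 13.35 at 72 h, against 13.36, 13.27, 13.12 and 13.31 at 0 h, and was not called (0.27, adjusted p = 0.067). Its other measurements changed by -0.05 and 0.21. ATP5MC3 was not called either (-0.15, adjusted p = 0.188). The difference between these genes' changes was not tested.

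Of the pseudogenes, UQCRBP1, annotated as transcribed and a copy of UQCRB, had 12.40, 12.52, 12.31 and 12.30 at 72 h, against 12.41, 11.95, 12.05 and 12.05 at 0 h. The groups overlapped, and the change of 0.27 ± 0.10 (SE, adjusted p = 0.0451) was lost in 10 of 24 fits that left out 1 array, with adjusted p up to 0.14 without 0 h replicate 2, without the 6 arrays (0.17, adjusted p = 0.332), with array weights (0.24, adjusted p = 0.0757), and with no filter on dim genes (adjusted p = 0.0549). UQCRB itself averaged 7.21 at 0 h and 7.27 at 72 h, close to the background of 7.10. It changed by 0.07 and was not called, but so near background this does not show that the gene was steady. Sequence shared by the copies may reach both probes, so which of the 2 genes the UQCRBP1 values describe was not tested. ATP5F1EP2 was not called.

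**Figure D4:**
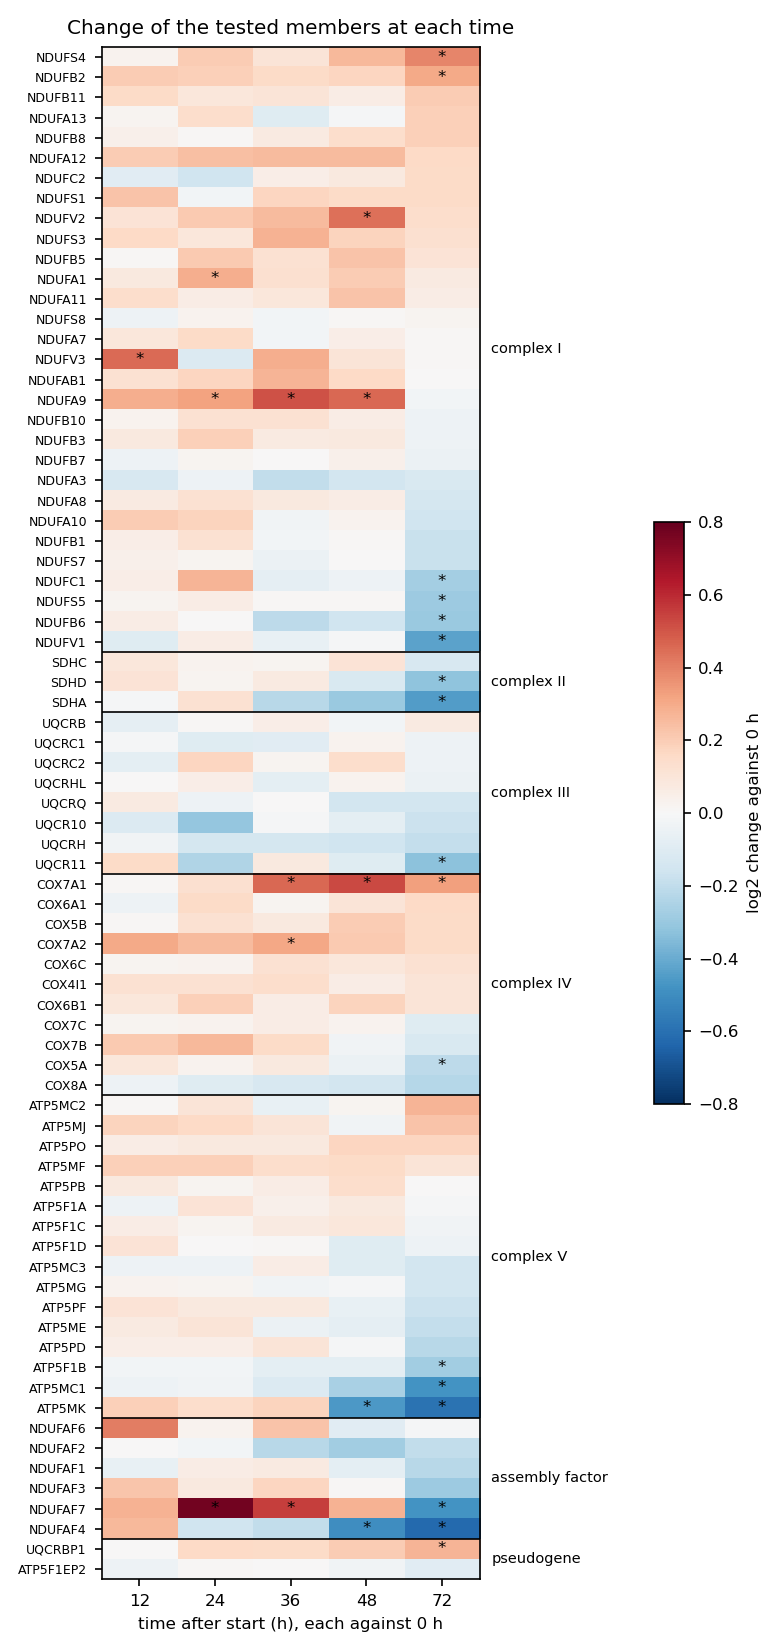
Log2 change of each tested member at each time against 0 h, from blue (lower) to red (higher), by complex, with an asterisk where the adjusted p was under 0.05. Most cells are pale; the asterisks at 72 h are 13 falls and 4 rises, and NDUFA9 and NDUFAF7 are red at 12 to 48 h and not at 72 h.

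From one time to the next, calls of members were few. At 24 h against 12 h, 1 member was higher and 2 lower, where 3.32% of all genes tested were higher, 3.25% lower and 6.57% either. At 36 h against 24 h it was 1 and 1, where 6.9% were higher, 7.46% lower and 14.4% either. At 48 h against 36 h it was 0 and 1 (2.9%, 2.37% and 5.27%), and at 72 h against 48 h 0 and 3 (2.69%, 3.51% and 6.21%). In the last interval the median member changed by -0.10 and 21 of 76 members lay above their 48 h mean. For all genes tested the median was 0.01, and 5241 of 10215 lay above their 48 h mean. The 3 members that fell were NDUFAF7, NDUFA9 and NDUFV1. Single arrays decided several of these small counts. The 12 h count of 1 was 0 without 0 h replicate 1 or 4 or without 12 h replicate 1, 2 or 4, and 4 without 0 h replicate 3. The 24 h count of 3 was 1 without 0 h replicate 2 or 24 h replicate 1, the 48 h count of 3 higher was 5 without 0 h replicate 1 or 48 h replicate 4, the 36 h count of 0 lower was 1 without 36 h replicate 3, and the 72 h count of 4 higher was 2 without 72 h replicate 3. At 24 h against 12 h the higher count was 0 without 12 h replicate 2 or 24 h replicate 1, 3 or 4, and the lower count was 0 without 12 h replicate 2 or 4 or 24 h replicate 4 and 1 without 24 h replicate 1 or 2. At 36 h against 24 h the higher count was 0 without 24 h replicate 1, 3 or 4 or 36 h replicate 1, 3 or 4 and 2 without 0 h replicate 1 or 3, 24 h replicate 2 or 72 h replicate 2, and the lower count was 0 without 24 h replicate 4 or 36 h replicate 4 and 2 without 0 h replicate 3, 24 h replicate 2 or 48 h replicate 4.

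The 4 arrays of 72 h lay wholly apart from the 4 of 0 h for 13 of 76 members, 3 above and 10 below, which is 17.1%, where this held for 31.1% of all genes tested. On each array at 72 h the median difference of complex II from its 0 h mean was between -0.43 and -0.27. Those of complexes I and IV were between -0.07 and 0.08 and between 0.04 and 0.14. Those of complexes III and V were between -0.14 and 0.04 and between -0.15 and -0.01. The median of the assembly factors was between -0.43 and -0.19.

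**Figure D5:**
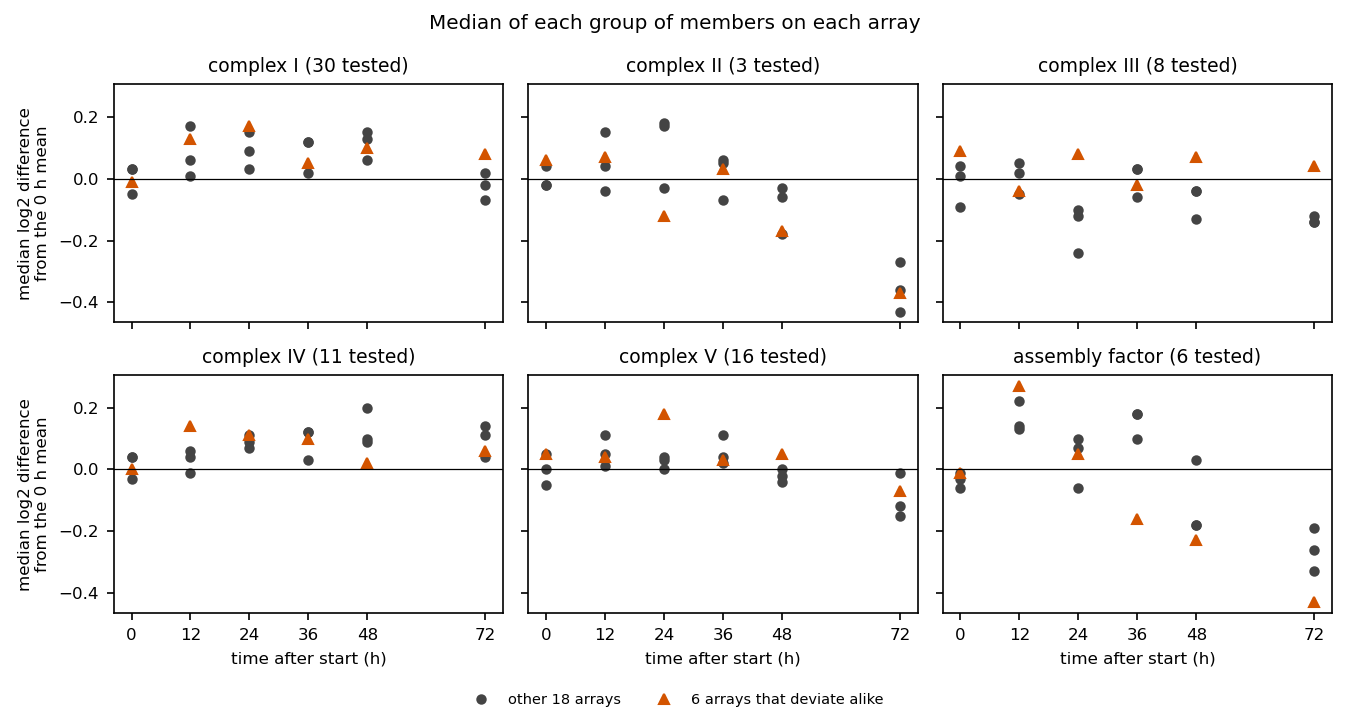
Median log2 difference from the 0 h mean on each array, for the tested members of each complex and of the assembly factors, over time (h). The 6 arrays that deviated alike are orange triangles and the other 18 dark circles. At 72 h all 4 arrays are below 0 for complex II, complex V and the assembly factors.

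Genes that work with the chain but lie outside the symbols were counted by list at 72 h against 0 h, to be read beside the 18.5% higher, 17.4% lower and 35.9% called either way among all genes tested. Of 37 tested assembly factors of other names, 3 rose and 1 fell, with a median change of -0.10. COA5 (0.31), UQCC2 (0.29) and COX11, which serve complexes III and IV, rose, and COA6 (-0.31), a copper-handling factor of complex IV, fell. COX11 was below background on all 4 arrays of 0 h and passed the filter through later times, so its rise is a description and not a test. Of 15 carriers and partners 0 rose and 3 fell, namely SLC25A5 (-0.35), an ADP/ATP carrier, HIGD1A (-0.33), a small partner of the chain, and CYC1 (-0.31), cytochrome c1 of complex III, while CYCS, cytochrome c, was not called (0.03, adjusted p = 0.901).

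Genes that feed the chain or maintain mitochondria had more falls than rises in each list below. The same background of 18.5% higher and 17.4% lower applies to these counts. Of 23 tested genes of the tricarboxylic acid cycle and pyruvate dehydrogenase, 0 rose and 7 fell, with a median of -0.15, and the largest fall was that of OGDHL (-1.18 ± 0.09 SE, adjusted p = 4.99e-10, above background on 3 of 4 arrays at 72 h), an oxoglutarate dehydrogenase paralogue, followed by IDH3A (-0.69) and SUCLA2 (-0.43). Of 22 membrane, import and chaperone genes 0 rose and 12 fell, with a median of -0.28, among them the matrix chaperones HSPE1 (-0.83) and HSPA9 (-0.68) and the import pore TOMM40 (-0.63). Of 20 biogenesis regulators 3 rose and 7 fell: MYC (-1.11), the helicase TWNK (-0.53) and the mitochondrial RNA polymerase POLRMT (-0.47) were among those that fell, LIN28A (0.31, also in the pluripotency list), LIN28B (0.39) and GABPA rose, and TFAM, which packages and transcribes mitochondrial DNA, was not called (-0.09, adjusted p = 0.507). Of 7 antioxidant genes 0 rose and 3 fell, TXNRD2 (-1.25), SOD2 (-0.56) and GLRX2 (-0.46, above background on 2 of 4 arrays at 72 h). Of 19 glycolysis genes 0 rose and 12 fell, with a median of -0.46, led by ALDOC (-1.31), HK1 (-1.03) and SLC2A1 (-0.90). The median of the 76 members beside these lists was -0.04, and the differences between lists were not tested.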

How the data were processed

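Signals came from 24 Illumina bead arrays of H1 total RNA, 4 at each of 6 times. The authors deposited log2 values, 37900 entries between 5.57 and 15.51, with nearly the same quantiles in every column. The scanner software, background correction and normalization behind them: not given in the sources used here. Another deposited table has 48 columns whose names match no sample label, and they were not used. Identical values on all arrays were shared by 10159 entries in 4746 sets, counted once each, which left 32487 measurements, and 17 members have such a repeated value. The platform annotation given with the series named 26221 entries with 1 symbol, 7 with several and 11672 with none, and the last 2 kinds were left out. One measurement per gene, the highest by mean, was tested when above 7.10 on at least 4 arrays, which kept 10215 of 17760 genes.

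A one-way model of time was fitted to all 24 arrays with limma 3.58.1 (lmFit, eBayes) in R 4.3.3. P-values were two-sided and adjusted within each of 9 comparisons at 0.05, and the F test covers the 5 comparisons with 0 h. The steps were tested on simulated data. The members and gene lists were chosen with earlier results of these data known.

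Genes were named by rule: per complex up to 3 rises and 3 falls at 72 h, up to 3 and 3 at other times and intervals, the isoform pairs and complex II always, the members of lowest and highest mean, and up to 3 genes per other list. Named outside it, after their values were seen, were COX11, CYCS, TFAM, YY1, GABPA, GABPB1, NRF1, LIN28A, LIN28B and the marker genes. So were NDUFC1 at 72 h, COX7A2 at 36 h, UQCRC1, UQCRC2, UQCRB and ATP5F1A. Alternatives were other filters, normalizations, prior variance, array weights, averaging of a gene's measurements, blocks for the replicate number, replicates 1 and 2 or 3 and 4 alone and leaving out each array, and, chosen after the data were seen, the fit without 6 arrays with a score over 0.2 on the first residual component.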

Additional observations from a re-analysis of the deposited data

Results flagged for a closer look

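In 6 of 210 sets of 4 arrays, over 35 named members, a single array stood apart from the other 3 of its time by more than Dixon's 95% limit, and chance alone gives this in about 1 of 20 sets. COX7B had 11.15 on 0 h replicate 4, below 11.27 to 11.28 on the others. COX8A had 13.03 on 24 h replicate 3, below 13.31 to 13.35. NDUFA9 had 10.16 on 48 h replicate 4, below 10.49 to 10.53. NDUFV3 had 8.06 on 36 h replicate 3, above 7.76 to 7.81. UQCRBP1 had 12.26 on 12 h replicate 1, above 12.06 to 12.07. UQCRH had 13.88 on 0 h replicate 4, below 14.12 to 14.16.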

How the results depend on the processing

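Counts of called members are given as higher and lower. None of the called changes of members in the report turned its sign under the 36 other settings, or the 35 in which COX7A1 was tested. Changes of genes in the other lists were not compared across settings. When 1 array was left out, members higher ranged over 0 to 4 at 12 h, 1 to 3 at 24 h, 3 to 6 at 36 h, 2 to 5 at 48 h and 2 to 5 at 72 h, and members lower over 0 to 0, 0 to 0, 0 to 1, 2 to 3 and 9 to 14. The intervals ranged over 0 to 1 higher and 0 to 3 lower at 24 h against 12 h, 0 to 2 and 0 to 2 at 36 h against 24 h, 0 to 0 and 1 to 1 at 48 h against 36 h, and 0 to 0 and 2 to 4 at 72 h against 48 h, and the F test over 15 to 21. Same-numbered arrays deviated together for number 1 (residual correlation 0.14 to 0.44 over 15 pairs) but not throughout for numbers 2 (-0.28 to 0.58), 3 (-0.26 to 0.52) and 4 (-0.35 to 0.58). Since not every pair exceeded 0.1, the numbers were not taken to pair the samples. A second component, with 13.7% of the residual variance, was negative for most arrays of numbers 1 and 2 and positive for most of 3 and 4. The main fit had no term for it. With the replicate number as a block, 2 members were higher at 12 h, 7 at 36 h and 7 at 48 h, and no count of calls at 72 h moved by over 1.5 times. With replicates 1 and 2 against 3 and 4 as a block, 2 were higher at 12 h and 7 at 48 h, and 2 higher and 2 lower at 36 h against 24 h. With only replicates 1 and 2 there were 0, 0, 2, 1 and 2 higher at the 5 times, 0 lower at 48 h and 7 lower at 72 h. In that fit 0 were called in each direction at 24 h against 12 h and 36 h against 24 h. It had 0 lower at 48 h against 36 h, and 6 passed the F test. With only replicates 3 and 4 there were 0, 1, 0, 1 and 2 higher, 1 lower at 48 h and 1 lower at 72 h. In all 4 intervals 0 were called in each direction, and 4 passed the F test. A prior variance with a trend gave 5 higher at 48 h. Averaging a gene's measurements gave 0 higher at 12 h, 5 at 48 h and 0 at 36 h against 24 h. Array weights gave 4 higher and 2 lower at 36 h against 24 h, 2 lower at 48 h against 36 h and 5 lower at 72 h against 48 h. At 36 h against 24 h, normalizing again gave 2 higher and no filter gave 0. Without the 6 arrays that deviated alike, 0 were higher at 12 h, 1 at 24 h, 1 lower at 48 h, 1 lower at 24 h against 12 h, 3 higher at 36 h against 24 h and 11 passed the F test, while 72 h had 3 higher and 9 lower. The cause of these moves was not tested, and the fits that left out arrays also had fewer of them. Near background, as for COX7A1, NDUFC2, UQCRB and NDUFV3, the signal limits the size of change that can be seen.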
